A study of Homo sapiens with 12 samples.

Results

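The genes described here are 52 human genes of the dividing cell, 26 that copy the DNA and 26 that run mitosis. They were taken as 2 lists of textbook members, chosen with earlier results of these data known. They were looked up on the arrays through the RefSeq identifier that each probe carries. A probe was found for 51 of the 52, all but UBE2C, out of 17240 genes with a named probe. These 51 genes had 60 probes in 132 spots per array, 1 probe for 42 genes and 2 probes for 9 genes. Their RNA was measured on 12 dual-color Agilent arrays. Of these, 6 hold RNA from Ls174T cells, a human colorectal carcinoma line in which a mutation stabilizes β-catenin and keeps the Wnt pathway on. The other 6 hold RNA from HEK293T cells, a line derived from human embryonic kidney, in which the pathway responds to added Wnt3A. All cells were transfected with siRNA at 15 nM for 72 h. In Ls174T cells the siRNAs were si-control, si-b-catenin, si-MLLT10, si-BRG1 and si-P300. In HEK293T cells si-control was given with 9 h of control medium or 9 h of Wnt3A, and 9 h of Wnt3A also followed each of si-DOT1L, si-P300, si-BRG1 and si-MLLT10. MLLT10/AF10 and DOT1L act together in methylation of histone H3, BRG1 (gene SMARCA4) is the motor of the SWI/SNF chromatin remodeler, and p300 (gene EP300) is a histone acetyltransferase. Each condition is 1 culture of 1 cell line, so every difference below describes the arrays compared and has no replicate check.

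A cell that enters S phase loads the MCM2-7 helicase at origins with CDC6 and CDT1, starts it with MCM10, CDC45 and the GINS complex, and copies DNA with polymerases held by the sliding clamp PCNA. In mitosis CDK1 with cyclin A or B drives the cell into division, the spindle checkpoint holds it until the chromosomes are attached, and CDC20 then starts anaphase. Most of these genes are switched on periodically: replication genes mainly by E2F factors late in G1, and many mitosis genes through CHR and CCAAT elements, bound by the DREAM and MMB complexes and by NF-Y, in G2. In the intestinal crypt and in colorectal cancer cells Wnt signaling through β-catenin and TCF4 maintains proliferation.

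The promoters of both groups differed in the short motifs they hold, as counted in windows of 300 bases, 250 before and 50 from the transcription start (RefSeq, GRCh38.p14). The windows cover 44 of the 52 genes, with 58 windows since some genes have several starts, and none was found for MCM4, MCM5, TPX2, TTK, UBE2C, AURKA, FOXM1 and BIRC5. An E2F motif (TTTGGCGC, TTTCCCGC, TTTCGCGC or TTTGCCGC, either strand) was found in 15 of 32 windows of replication genes (46.9%), 3 of 26 of mitosis genes (11.5%) and 3.31% of all 35116 windows in the table. The CHR letters TTTGAA, on either strand, were found in 1 of 32 windows of replication genes and 15 of 26 of mitosis genes (57.7%), against 15.2% of all windows. CCAAT, on either strand, was found in 23 of 32 windows of replication genes and 22 of 26 of mitosis genes, against 34.6% of all windows. Motifs of different kinds shared letters at 2 places in these windows. A match is a run of letters and not a bound site. The 100 bases before the start of 8 genes are printed because the results below turn on several of them (RFC3, CDT1, TYMS, BUB1B, CENPA, KIF23) or because they are a plain example of their kind (E2F1, CCNB2). Capitals mark the E2F motif in the first 4, and the CHR letters in the last 4, with CCAAT or its reverse ATTGG in capitals where present. All run 5′ to 3′ toward the start.

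RFC3 (chr13:33818049-33818148, plus strand): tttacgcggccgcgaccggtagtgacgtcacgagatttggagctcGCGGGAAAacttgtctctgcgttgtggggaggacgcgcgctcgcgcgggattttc
CDT1 (chr16:88803689-88803788, plus strand): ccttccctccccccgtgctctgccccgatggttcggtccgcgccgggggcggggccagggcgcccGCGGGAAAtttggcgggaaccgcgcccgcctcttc
TYMS (chr18:657553-657652, plus strand): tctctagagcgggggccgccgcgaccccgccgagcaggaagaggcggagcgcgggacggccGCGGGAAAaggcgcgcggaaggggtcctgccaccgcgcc
E2F1 (chr20:33686386-33686485, minus strand): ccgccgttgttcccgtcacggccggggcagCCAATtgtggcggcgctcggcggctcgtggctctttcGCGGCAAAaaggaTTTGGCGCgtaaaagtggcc
BUB1B (chr15:40160969-40161068, plus strand): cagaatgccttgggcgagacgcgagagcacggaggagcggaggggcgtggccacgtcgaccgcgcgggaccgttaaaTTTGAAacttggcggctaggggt
CENPA (chr2:26785956-26786055, plus strand): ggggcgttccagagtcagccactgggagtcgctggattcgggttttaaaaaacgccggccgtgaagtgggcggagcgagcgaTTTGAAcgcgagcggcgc
CCNB2 (chr15:59105046-59105145, plus strand): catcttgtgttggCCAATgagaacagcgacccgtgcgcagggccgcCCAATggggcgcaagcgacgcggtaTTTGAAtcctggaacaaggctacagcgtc
KIF23 (chr15:69414249-69414348, plus strand): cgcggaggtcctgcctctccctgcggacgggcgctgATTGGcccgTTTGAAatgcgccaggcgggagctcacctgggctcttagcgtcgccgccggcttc

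The first 4 stretches each hold an E2F motif, at 55 bases before the start in RFC3, 35 in CDT1, 39 in TYMS and at both 33 and 20 in E2F1, whose product is itself an E2F factor. The last 4 hold the CHR letters at 23 bases before the start in BUB1B, 18 in CENPA, 29 in CCNB2 and 55 in KIF23.

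On 10 arrays the sample was labeled with Cy3 and set against universal human reference RNA in Cy5, and on 2 arrays β-catenin-depleted RNA was set directly against si-control RNA, the second time with the dyes exchanged. This pairing is that of the labels, while the methods describe reference RNA for the arrays in general. On the pair the ratios of VIL1 (0.50 and 0.32) and EPCAM (0.01 and 0.20), colonic genes, lay near 0, against 2.08 to 2.47 and 2.44 to 2.70 on the Ls174T arrays with reference RNA, so the values go with the labels. A feature was well-measured where either channel exceeded 2-fold the local background, which held for 18104 and 23077 features on the β-catenin pair and 27717 to 31011 on the other arrays. Most colonic markers marked the Ls174T arrays, and VIM, CDH2 and the neural genes NEFM and NEFL the HEK293T arrays. The difference was 8.91 for VIL1 and −5.65 for VIM (log2 of the scaled sample signal, Ls174T minus HEK293T), whereas the colonic mucin MUC2 differed by 0.22. The fibroblast marker PDGFRB was higher on the Ls174T arrays (3.14), and the fibroblast marker DCN differed by −0.17. The siRNA targets were lower in their own knockdown, by −2.70 and −2.49 (CTNNB1), −1.42 and −1.76 (MLLT10 in Ls174T and HEK293T), −2.24 to −2.53 and −3.95 to −4.00 (SMARCA4) and −0.60 to −1.31 and −2.35 to −2.98 (EP300). For DOT1L the probes gave −1.41, −1.97 and 0.17. The arrays lie on 5 slides: the β-catenin pair on one, Ls174T si-control and si-MLLT10 with HEK293T si-BRG1 and si-P300 on another, Ls174T si-BRG1 and si-P300 on a further one, the HEK293T control medium, si-MLLT10 and si-DOT1L arrays on yet another, and the HEK293T si-control Wnt3A array alone on its slide. Slide therefore cannot be told apart from siRNA in the comparisons of BRG1 and p300 with si-control, nor in any HEK293T comparison with the si-control Wnt3A array, and same-slide differences are given beside those. Below, a gene is said to have risen or fallen where it differed by more than 1.5-fold, and ± is the scanner program's own error of the log2 value, which does not include the spread between cultures.

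**Figure D1:**
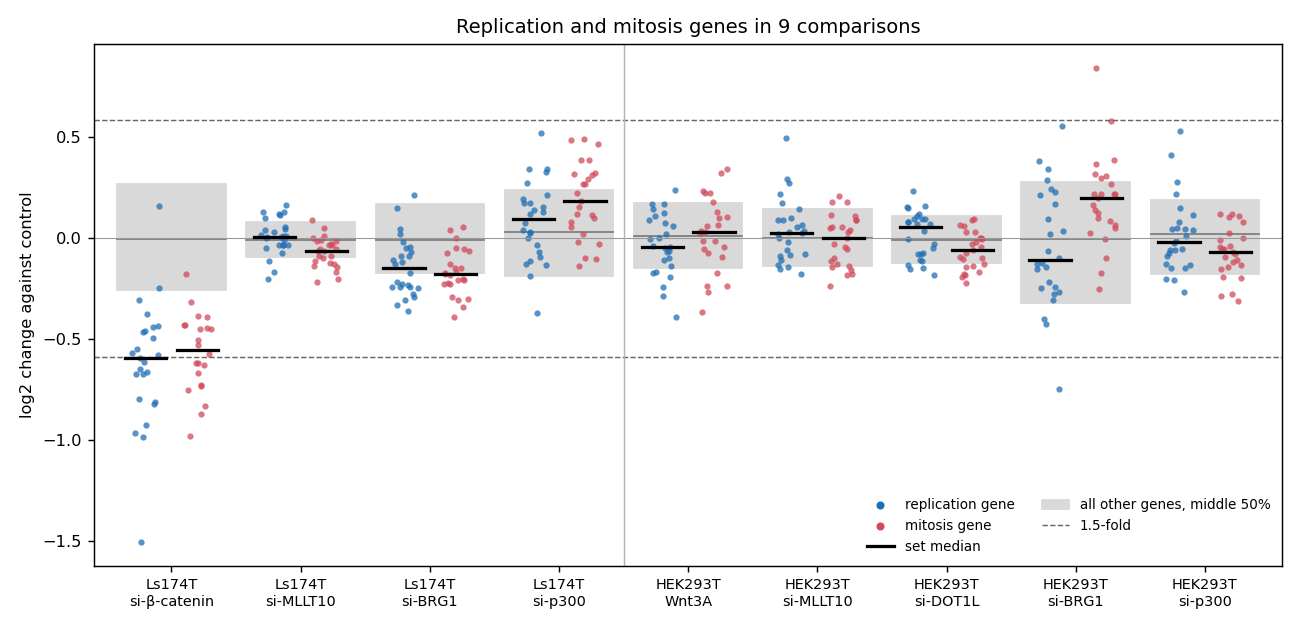
Log2 change of each replication gene (blue) and mitosis gene (red) in the 9 comparisons with the control of the same cell line, with black bars at the median of each set, gray boxes over the middle 50% of all other genes, and dashed lines at 1.5-fold. The sets lie furthest from the other genes after β-catenin depletion, with medians of −0.59 and −0.55, and after BRG1 depletion in HEK293T cells the medians stand on opposite sides of 0, at −0.11 and 0.20.

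Depletion of β-catenin in Ls174T cells was followed by lower RNA of replication and mitosis genes as groups. Of the 25 replication genes that were well-measured on both arrays 13 fell by more than 1.5-fold, and of 22 mitosis genes 10 fell, while none rose. Among all 9392 other genes measured there, 6.31% were lower and 10.9% higher by the same margin. The median log2 change was −0.59 for replication and −0.55 for mitosis genes, against −0.00 for all other genes, and 46 of the 47 members were below 0, against 50.6% of other genes. These are RNA levels of a whole culture, so fewer dividing cells and less of these RNAs per cell cannot be told apart. The other 4 members with a probe, GINS1, AURKA, TTK and MKI67, were each too dim on the second array; on the first array, without the filter, GINS1 stood at −0.25, AURKA at −0.36, TTK at −0.73 and MKI67 at 0.07. With no filter at all the number past 1.5-fold stayed at 23, of 51 members.

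The proteins that load and form the sliding clamp included the member that fell most with the filter. RFC3, a subunit of the clamp loader, stood at −1.46 on the first array and −1.54 on the second, a mean of −1.5 ± 0.19 or 2.83-fold lower. This value comes from 1 of its 2 probes, since the other was too dim on both arrays, and the mean over both without the filter was −0.76. Background correction by normexp and loess gave −0.97. The loader subunits RFC4, at −0.80 and −0.84, and RFC5, at −0.60 and −0.69, fell too. PCNA, the clamp itself, stood at −0.54 and −0.80, which made all 4 genes of this group lower by more than 1.5-fold in the mean. With the filter RFC3 was apart from the next member by 0.52, more than the error of either. Without it RFC3 was not the lowest, since PRIM1 stood at −0.99, TOP2A at −0.98 and POLE2 at −0.96. With normexp and loess PRIM1 stood at −0.81, nearer to RFC3. From PRIM1 at −0.99 up to PLK1 at −0.18 no neighbors in the order differed by more than 0.07, less than their errors.

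Among the enzymes at the fork, PRIM1, the primase subunit that makes the RNA primer, stood at −1.09 and −0.88 on the 2 arrays. POLE2, a subunit of the leading strand polymerase, stood at −0.73 and −1.2, the widest gap between the arrays of any member (0.47). POLA1, the catalytic subunit of the polymerase that extends primers, fell to a mean of −0.61 but stood at −0.44 on the first array and −0.78 on the second. FEN1, which trims the flaps of Okazaki fragments, had a mean of −0.55 and missed the threshold. In the helicase, MCM2 (−0.92 ± 0.16), MCM4 (−0.67 ± 0.15) and MCM6 (−0.59 ± 0.15) fell. MCM5 (−0.58), MCM7 (−0.46) and MCM3 (−0.43) were below 0 and short of 1.5-fold, so that all 6 subunits were lower and MCM6 and MCM5, 1.51-fold and 1.49-fold, lie on either side of the threshold with nearly the same value.

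Of the genes that license origins and start the helicase, MCM10 (−0.81 ± 0.11) and GINS2 (−0.66 ± 0.15) fell, and CDT1 (−0.57), CDC45 (−0.44) and CDC6 (−0.38) did not pass. TYMS, which makes the thymidylate for DNA, stood at −0.57 and −1.02, a mean of −0.79, while both subunits of ribonucleotide reductase, RRM2 at −0.49 and RRM1 at −0.30, did not pass. The regulators among the members were the least affected group. The checkpoint kinase CHEK1 had −0.46, E2F1 had −0.24 and E2F2 had 0.16 ± 0.12, the only value above 0, where its 2 probes disagreed at −0.06 and 0.38.

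In mitosis, TOP2A, the topoisomerase that untangles sister chromatids, was lowest, at −0.87 and −1.09 on the 2 arrays. Of the spindle checkpoint, BUB1B (−1.01 and −0.74) and BUB1 (−0.75 and −0.91) fell and MAD2L1 had a mean of −0.57, with a median of −0.83 for the 3 measured. CDK1, the kinase that drives entry into mitosis, stood at −0.96 and −0.54. Its partner cyclin CCNA2 fell by 0.63 on the log2 scale, and CCNB1 (−0.53) and CCNB2 (−0.32), the B-type cyclins, did not pass. AURKB, the kinase of the chromosomal passenger complex, stood at −0.60 and −0.86, and CENPA, the histone that marks centromeres, at −0.69 and −0.77. FOXM1, a transcription factor of G2 genes (−0.67), TPX2, which activates Aurora A at the spindle (−0.62), and the cytokinesis kinesin KIF20A (−0.62) also fell. The kinesins KIF11 (−0.50) and KIF23 (−0.43), CENPE and CENPF (−0.44 and −0.45), BIRC5, the survivin subunit of the passenger complex (−0.43), CDC20 (−0.45), securin PTTG1 (−0.39) and the phosphatase CDC25C (−0.38) were lower without passing, and PLK1, a kinase of the spindle poles and kinetochores, had the value nearest to 0, −0.18 ± 0.10.

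**Figure D2:**
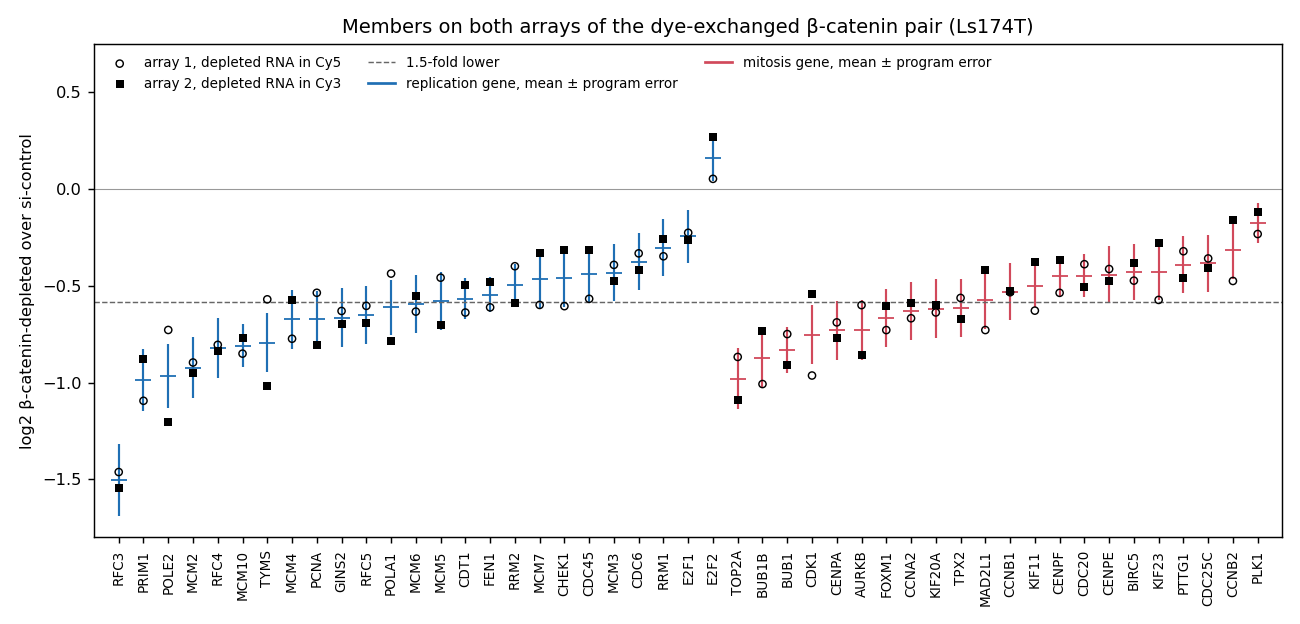
Log2 ratio of β-catenin-depleted over si-control RNA for the 47 members measured on both arrays, ordered by their mean within replication (blue) and mitosis (red) genes; circles and squares are the first and second array, vertical bars the mean ± the program error, and the dashed line 1.5-fold lower. Members other than E2F2 lie below 0 on both arrays, and RFC3, from the 1 of its 2 probes that passed the filter, stands apart at −1.5.

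The dye exchange gave the same picture of one RNA pair measured again. On both arrays 46 of the 47 members were below 0, against 41.4% of other genes, and 16 were lower by more than 1.5-fold on both, against 4.27%. No member had opposite signs on the 2 arrays. The arrays differed by a median of 0.14 per member, and by more than 0.3 for 6 members. With only the first array 26 of 51 members passed 1.5-fold and with only the second 22 of 47, while background correction by normexp and loess left 16 of 47. At 2-fold RFC3 alone passed, where 5.8% of other genes differed by 2-fold in either direction.

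Genes of the same processes that are not members were lower as well in this comparison. Of 36 other replication genes 34 were measured, with a median of −0.54, all below 0, and 11 fell and none rose. Among all other genes 6.31% fell and 10.9% rose. The largest falls were those of DSCC1, of a variant clamp loader (−0.90), RPA2, of the single-strand binding protein (−0.86), and ORC1, of the origin recognition complex (−0.83). Of 42 other mitosis genes 39 were measured, with a median of −0.44, and 11 fell and none rose, led by ECT2, which positions the cleavage furrow (−0.90), KIF15 (−0.84) and KIF18A (−0.80). Of 17 regulators of the cell cycle program (E2F, RB and DREAM components and the like) 11 were measured, with a median of −0.18, and 1 fell, the repressor E2F7 (−0.76). For the regulators 1 of 11 is near the 6.31% of all other genes.

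Members were also set side by side by promoter motif, with no test. The 14 measured replication genes with an E2F motif had a median of −0.60 and the 9 without −0.55. The 12 measured mitosis genes with TTTGAA had a median of −0.48 and the 7 without −0.62. The 15 replication genes with CCAAT had a median of −0.49 and the 8 without, RFC3 among them, −0.81.

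Depletion of MLLT10/AF10 in Ls174T cells left these genes near their si-control level. None of 51 members differed by 1.5-fold, against 3.89% of other genes. Medians were 0.01 for replication and −0.06 for mitosis genes, against −0.01 for other genes, and members ranged from −0.22 (KIF11, the motor that separates spindle poles) to 0.17 (GINS1). Below 0 were 11 of 26 replication and 21 of 25 mitosis genes, against 52.3% of other genes. No member's value exceeded its own program error. Both arrays lay on the same slide.

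In HEK293T cells 9 h of Wnt3A also gave no member past 1.5-fold, of 51, against 5.68% of other genes. Medians were −0.04 and 0.03, with the highest values at AURKB (0.34 ± 0.36), the proliferation antigen MKI67 (0.33 ± 0.30) and RRM2 (0.24 ± 0.21). The lowest were GINS1 (−0.39 ± 0.31), KIF23 (−0.37 ± 0.29), which bundles the central spindle, and CHEK1 (−0.28 ± 0.29). The control medium and Wnt3A arrays lay on different slides. On the slide of the control medium array, MLLT10/AF10- and DOT1L-depleted cells with Wnt3A also gave no member past 1.5-fold, where 6.55% and 5.37% of other genes passed. TTK, the kinase at the top of the spindle checkpoint, was lowest in both of these (−0.37 and −0.34). E2F1 (0.39 and 0.33) and PTTG1 (0.35 and 0.23) were above 0 in both, while RRM2 was highest after DOT1L depletion (0.40) and stood at 0.18 after MLLT10/AF10 depletion. Both differences subtract the same control medium array, which held the lowest HEK293T level of E2F1 (0.62), PTTG1 (−0.84) and RRM2 (0.33).

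Depletion of MLLT10/AF10 and of DOT1L in Wnt3A-treated HEK293T cells likewise gave 0 of 51 members past 1.5-fold, where 5.88% and 4.91% of other genes passed. The medians of replication and mitosis genes were 0.03 and 0.00 for MLLT10/AF10 and 0.06 and −0.06 for DOT1L. GINS1 had the highest value, 0.50 ± 0.31, after MLLT10/AF10 depletion and 0.09 after DOT1L depletion. It was also 0.41 after p300 and 0.56 after BRG1 depletion, and all 4 share the si-control Wnt3A array, on which GINS1 was at its lowest of the 6 HEK293T arrays. Over the reference, GINS1 stood at 1.03 in control medium, 0.64 in si-control with Wnt3A, 1.14 after MLLT10/AF10, 0.74 after DOT1L, 1.20 after BRG1 and 1.06 after p300 depletion. Set directly against each other on their slide, MLLT10/AF10- and DOT1L-depleted cells differed by −0.21 (RRM2) to 0.40 (GINS1) over all members and by medians of 0.01 and 0.03, with 3.33% of other genes past 1.5-fold.

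Depletion of p300 also gave no member past 1.5-fold in either cell line, of 51, where 13.6% of other genes passed in Ls174T and 10.6% in HEK293T cells. In Ls174T cells the medians were 0.10 for replication and 0.19 for mitosis genes, against 0.03 for other genes, and 38 of 51 members were above 0, against 54.0% of other genes. With the sample channel alone the medians were 0.09 and 0.11 and that of all genes 0.07. The highest were RRM2 (0.52 ± 0.26), MKI67 (0.49 ± 0.31), CENPF (0.49 ± 0.22), a kinetochore protein, and CDK1 (0.47 ± 0.29), and the lowest was RFC3 (−0.37 ± 0.22). In HEK293T cells the medians were −0.02 and −0.07, E2F1 was highest (0.53 ± 0.32) and FOXM1 lowest (−0.31 ± 0.29). There 14 of 26 replication and 19 of 25 mitosis genes were below 0, against 47.0% of other genes. Of the further genes of these processes, ZWINT of the kinetochore (0.67) and E2F7 (0.62) were higher in Ls174T cells, and UNG, which removes uracil from DNA (−0.67), and E2F8 (−0.69) were lower in HEK293T cells. In Ls174T cells these were 1 of 41 other mitosis genes and 1 of 16 regulators, where 8.48% of all other genes were higher. In HEK293T cells they were 1 of 35 other replication genes and 1 of 16 regulators, where 7.26% were lower. None is a larger share than among all other genes.

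The medians of replication and mitosis genes stood furthest apart after depletion of BRG1 in HEK293T cells. There 1 member fell, CDT1, the licensing factor that brings MCM2-7 to origins, by 0.75 ± 0.23 on the log2 scale (1.68-fold), and 1 rose, KIF23, by 0.85 ± 0.30 (1.8-fold). In this comparison 12.8% of other genes were lower and 8.11% higher by 1.5-fold, so 2 of 51 members is a smaller share than among the other genes, where 20.9% passed in either direction. The medians stood at −0.11 for replication and 0.20 for mitosis genes, against −0.00 for all other genes.

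CDT1 was measured on 2 probes, at −0.81 and −0.69. Its level over the reference was 1.34 in control medium, 1.45 in si-control with Wnt3A, 1.55 after MLLT10/AF10, 1.55 after DOT1L, 1.32 after p300 and 0.70 after BRG1 depletion. The si-BRG1 array was thus below the other 5 HEK293T arrays. KIF23 stood at 0.28 in control medium, −0.09 in si-control with Wnt3A, 0.00 after MLLT10/AF10, 0.00 after DOT1L, 0.02 after p300 and 0.76 after BRG1 depletion. Here the si-BRG1 array was above the rest, and the nearest was the control medium array, on another slide, while the si-control Wnt3A array held the lowest of the 6 levels.

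Of the 26 replication genes 15 were below 0, against 50.1% of other genes, and the functional groups among them differed. Of the 6 subunits of MCM2-7, 5 were below 0, with a median of −0.27: MCM5 at −0.43 ± 0.31, MCM2 at −0.40 ± 0.33, MCM6 at −0.30, MCM3 at −0.25 and MCM4 at −0.22, with MCM7 at 0.02. MCM2 stood at 0.95 over the reference after BRG1 depletion and at 1.24 to 1.46 on the other 5 HEK293T arrays, and MCM5 at 0.63 against 0.98 to 1.23. Of the licensing and helicase-starting genes 5 of 6 were below 0, the exception being GINS1 at 0.56 described above. The clamp and its loader (median 0.08), the polymerases, primase and FEN1 (0.03) and the nucleotide supply genes (0.10) were spread around 0. In this order 2 of 4, 2 of 4 and 1 of 3 were below 0, with POLA1 lowest at −0.28. Above 0, RFC4 stood at 0.34, POLE2 at 0.29, RRM2 at 0.24 and RFC3 at 0.21. CHEK1 (0.39), E2F2 (0.23) and E2F1 (0.04) were above 0, as were 21 of 25 mitosis genes, against 49.9% of other genes. CENPA was at 0.58 ± 0.29, just short of 1.5-fold, followed by PTTG1 (0.39 ± 0.29), TOP2A (0.37 ± 0.29), CENPF (0.32 ± 0.22), TTK (0.31 ± 0.32) and PLK1 (0.30 ± 0.22). KIF20A was lowest of the mitosis genes, at −0.25 ± 0.29.

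On a slide that held both arrays the mitosis genes again stood above the other genes, while the replication genes lay near them. BRG1- and p300-depleted HEK293T cells lay on one slide, and their difference had a median of −0.02 for replication and 0.26 for mitosis genes, against −0.03 for other genes. Of the mitosis genes 23 of 25 were above 0, against 47.3% of other genes. Of the replication genes 14 of 26 were below 0, against 52.7% of other genes. CDT1 (−0.62 ± 0.23) was lower and KIF23 (0.74 ± 0.30) higher in BRG1-depleted cells by more than 1.5-fold, where 10.0% of other genes were lower and 8.28% higher. CENPA (0.58), TOP2A (0.52), CENPF (0.51) and PLK1 (0.50) followed upward and MCM5 (−0.57), E2F1 (−0.49) and MCM2 (−0.44) downward. Both differences contain the same si-BRG1 array and are not independent of each other. Counted over all 6 HEK293T arrays, the si-BRG1 array held the lowest level of 12 of 26 replication genes, against 31.7% of other genes, and the highest level of 18 of 25 mitosis genes, against 29.7%.

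In Ls174T cells BRG1 depletion gave no member past 1.5-fold, of 51, against 11.9% of other genes, and both groups leaned down. Medians were −0.15 for replication and −0.18 for mitosis genes, against −0.01 for other genes, and 44 of 51 members were below 0, against 51.1%. The lowest were CCNA2 (−0.39 ± 0.30), MCM7 (−0.36 ± 0.33) and BUB1 (−0.34 ± 0.29), and the highest CHEK1 (0.22 ± 0.30). CDT1 stood at −0.13 and KIF23 at −0.22, and most of these values are smaller than their program errors. Set against p300-depleted cells on the same slide, medians were −0.29 for replication and −0.34 for mitosis genes, against −0.02 for other genes, and 43 of 51 members were below 0, against 52.8%. In that difference 3 of 51 members were lower by 1.5-fold and none higher, where 3.36% of other genes were lower and 4.08% higher. These 3 were CENPF (−0.67 ± 0.22), BIRC5 (−0.62 ± 0.30) and KIF23 (−0.61 ± 0.32). Over the reference KIF23 stood at −1.08 in si-control, −1.09 after MLLT10/AF10, −1.31 after BRG1 and −0.69 after p300 depletion, and CENPF at −0.55, −0.50, −0.73 and −0.06 in the same order. In both genes the si-BRG1 array was lowest and the si-P300 array highest of the 4. Each extreme was also counted separately over all members. The si-BRG1 array held the lowest level of 19 of 26 replication and 18 of 25 mitosis genes, against 28.0% of other genes. The si-P300 array held the highest of 16 and 20, against 35.4%. Members with both extremes were not counted. Both arrays share a slide that does not hold the Ls174T si-control.

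**Figure D3:**
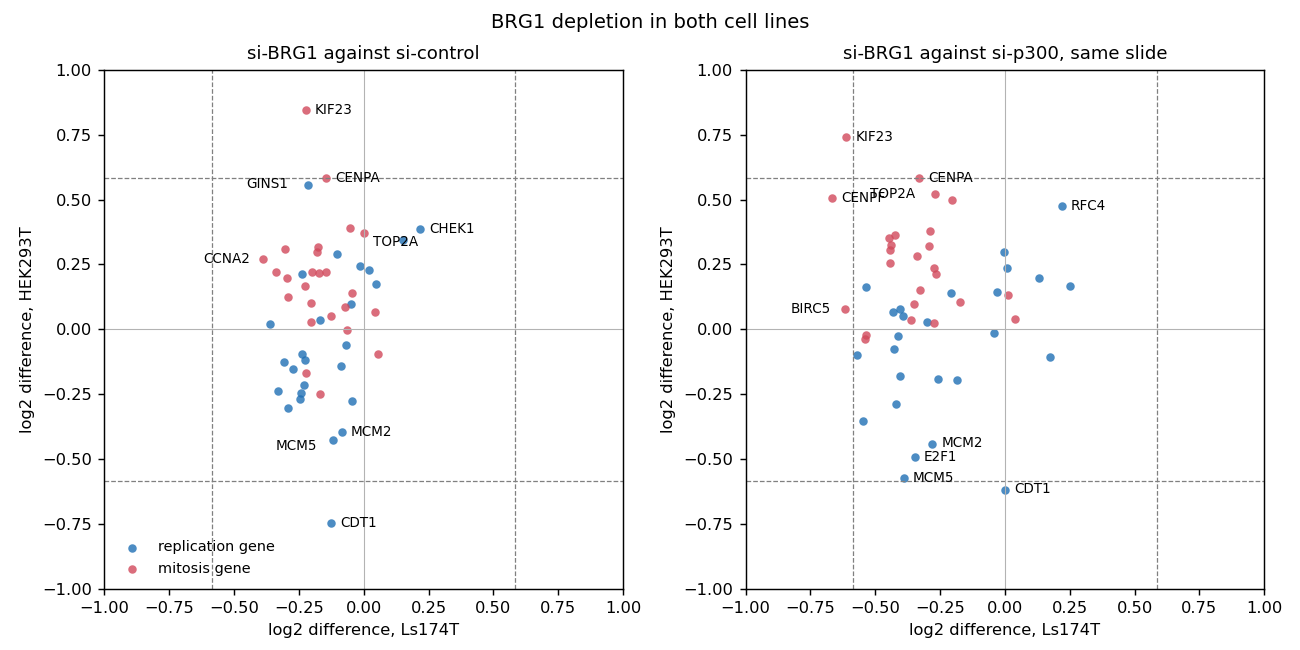
Each point is a member, with its log2 difference in Ls174T cells on the horizontal and in HEK293T cells on the vertical axis; the left panel sets si-BRG1 against si-control and the right panel si-BRG1 against si-P300 on the same slide, with dashed lines at 1.5-fold. Mitosis genes (red) gather in the upper left of both panels, where 19 and 21 of 25 lie.

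The mitosis genes thus lay on opposite sides in the 2 lines, −0.18 and 0.20 at the median, and 19 of 25 were below 0 in Ls174T and above 0 in HEK293T cells, against 23.3% of other genes. For BRG1 minus p300 on their slides the number was 21 of 25, against 22.7%. Of the replication genes 7 of 26 showed this combination against si-control, near the 23.3% of other genes. With 1 culture per condition the difference between the lines was not tested. The mitosis genes with TTTGAA in their promoter window had a median of 0.22 after BRG1 depletion in HEK293T cells (13 genes) and those without 0.12 (7 genes), and in Ls174T cells −0.17 and −0.22. Among genes that are not members, the other mitosis genes had a median of 0.32 in HEK293T cells, and of −0.18 in Ls174T cells. In HEK293T cells 3 of 41 were higher, HMMR (0.84), NEK2 (0.65) and NDC80 (0.62), which is no larger a share than the 8.11% of all other genes. The other replication genes had medians of −0.10 and −0.15, and in HEK293T cells 4 of 36 were lower, led by GINS4 (−1.12), a subunit of the same complex as GINS1 and GINS2, ORC1 (−0.79) and the ligase LIG1 (−0.69), and 1 was higher, POLD3 (0.69), again no larger a share than the 12.8% and 8.11% of all other genes. Of the regulators 3 of 16 were higher in HEK293T cells, where 8.11% of all other genes were: RBL1, the p107 pocket protein (0.87), E2F3 (0.60) and E2F8 (0.59). In Ls174T cells GINS4 (−0.61 ± 0.21) and the mitotic kinesin KIF14 (−0.64 ± 0.31) were lower, and no gene of the 3 further lists was higher. These were 1 of 35 other replication and 1 of 41 other mitosis genes. Of all other genes 4.4% were lower and 7.48% higher, so neither is a larger share.

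The same lists were counted in the same-slide differences from p300-depleted cells. In Ls174T cells 9 of 41 other mitosis genes were lower after BRG1 than after p300 depletion and none higher, where 3.36% of all other genes were lower, led by CKAP2 (−0.71), ASPM (−0.69) and PRC1 (−0.69), which act on spindle microtubules, with a median of −0.34. Of the other replication genes 1 of 36 was lower there, the thymidine kinase TK1 (−0.61), and 1 of 16 regulators, RB1 (−0.68). In HEK293T cells 6 of 41 other mitosis genes were higher and 1 lower, where 8.28% of all other genes were higher and 10.0% lower, with NEK2 (0.93), SMC4 of condensin (0.79) and HMMR (0.72) at the top and INCENP at −0.63. GINS4 (−1.39) and ORC1 (−0.68) were among the other replication genes that were lower, at a share below that 10.0%. Of the regulators 3 of 16 were higher, E2F8 (1.28), E2F3 (1.08) and RBL1 (0.78).

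The 2 cell lines also differed in how much of these RNAs they held relative to the reference. Replication genes had medians of 0.67 to 0.79 on the 6 HEK293T arrays and 0.12 to 0.39 on the 4 Ls174T arrays, and mitosis genes 0.09 to 0.45 and −0.05 to 0.35, where all other genes had medians of 0.24 to 0.28 and 0.21 to 0.30. The sample carried the same dye on all 10 arrays, so these levels include any dye bias of a probe, which cancels between arrays. Of 51 members 22 were lower on all Ls174T arrays than on all HEK293T arrays and 5 were higher, against 29.9% and 29.1% of other genes. The other 24 overlapped.

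RFC3 stood furthest apart among replication genes, at −0.37 to −0.00 on the Ls174T arrays and 1.38 to 1.76 on the HEK293T arrays. CDT1 (−0.23 to −0.06 against 0.70 to 1.55), CDC45 (−0.71 to −0.31 against 0.56 to 0.87) and MCM10 (0.19 to 0.46 against 1.19 to 1.42) were also lower in Ls174T cells. In the opposite direction, RRM2 stood at 1.48 to 2.02 in Ls174T and 0.33 to 0.82 in HEK293T cells, and TYMS at −0.41 to −0.02 and −0.94 to −0.77. Both supply nucleotides, whereas the large reductase subunit RRM1 was lower in Ls174T cells, at −0.25 to 0.18 against 0.71 to 0.95. Of the mitosis genes, TOP2A (−1.71 to −1.44 against −0.62 to −0.10), KIF23 (−1.31 to −0.69 against −0.09 to 0.76) and TTK (−0.25 to 0.06 against 0.69 to 1.14) were lower in Ls174T cells. CENPA (0.80 to 1.13 against −0.10 to 0.54), CCNB1 (−0.00 to 0.35 against −0.29 to −0.11) and CCNB2 (−0.05 to 0.39 against −0.49 to −0.23) were higher. Many of the rest, among them CCNA2 (0.45 to 0.84 against 0.50 to 0.87), BUB1B (−0.15 to 0.21 against −0.09 to 0.13) and MCM7 (1.11 to 1.51 against 1.27 to 1.47), overlapped.

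**Figure D4:**
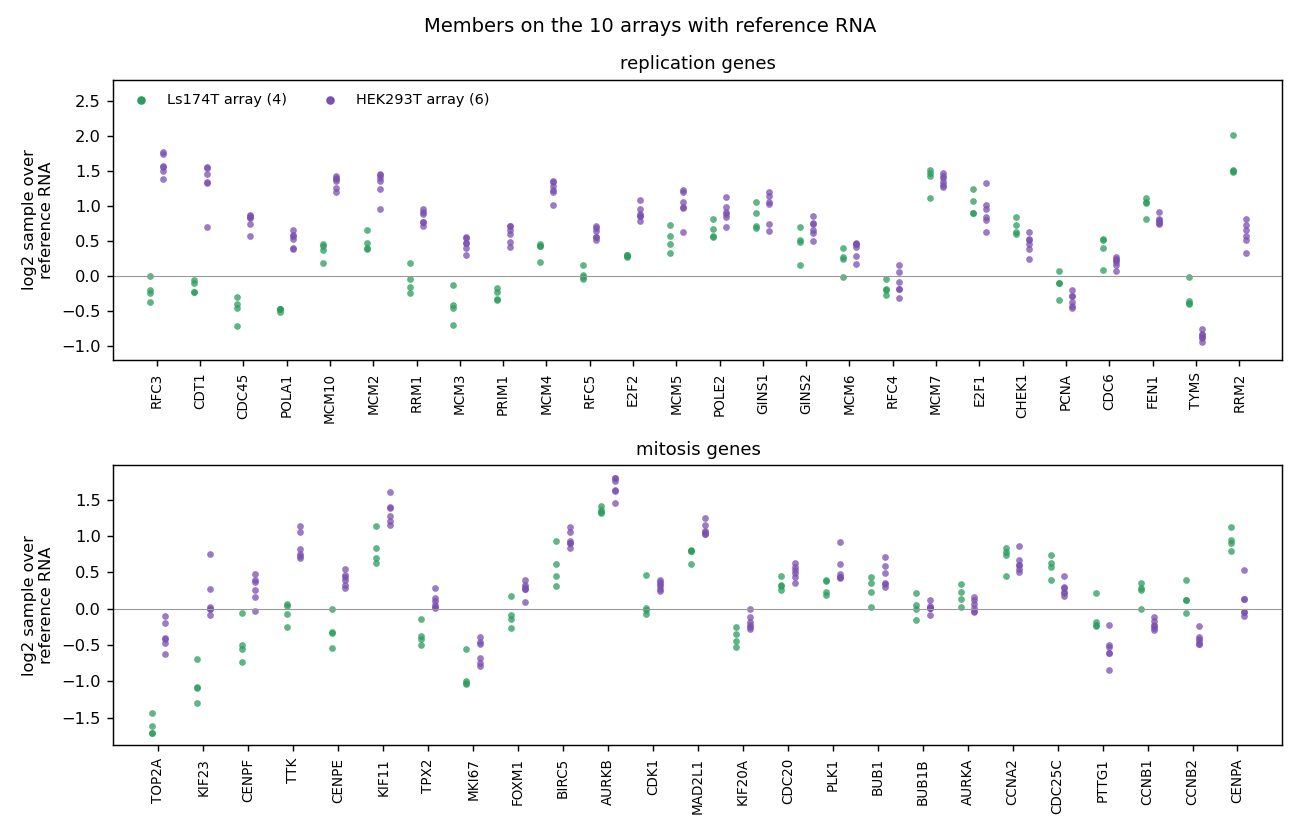
Log2 ratio of sample over reference RNA for each member on the 4 Ls174T arrays (green) and 6 HEK293T arrays (purple), replication genes above and mitosis genes below, each ordered by the difference of the medians of both lines. RFC3 and CDT1 stand at the left with Ls174T lower and RRM2 at the right with Ls174T higher; on the mitosis side TOP2A and KIF23 stand at the left and CENPA at the right.

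Across the 8 comparisons other than β-catenin, KIF23 covered the widest range, from −0.37 (Wnt3A) to 0.85 (BRG1 in HEK293T cells), followed by GINS1 (−0.39 to 0.56) and CDT1 (−0.75 to 0.11). The si-control Wnt3A array enters both ends of the first 2 ranges with opposite sign, and it held the lowest HEK293T level of KIF23 (−0.09) and GINS1 (0.64). RFC3, the member that fell most after β-catenin depletion with the filter, was between −0.37 and 0.21 in the other 8.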

How the data were processed

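The deposited log10 ratios are LogRatio values of red (Cy5) over green (Cy3) processed signal that the authors obtained with Agilent Feature Extraction (version 10.5.1.1 per the file headers, 8.5.1.1 per the submitters' processing notes), which subtracts background and normalizes the dyes. The deposited intensity values are median signals and local backgrounds per feature. A deposited series table held the same ratios, with 1 array turned. Here each ratio was put on the log2 scale with the sample RNA on top (the β-catenin-depleted RNA on the pair, whose 2 arrays count as 1 replicate). Control spots and outlier flags were left out, and features had to exceed 2-fold local background in either channel on every array compared. Spots were averaged per probe and probes per gene, and SystematicName identifiers were named through RefSeq, which matched 27612 of 29084 features. Differences past 1.5-fold were counted in members and in all other genes. There is 1 sample per condition, so no p-value is given, and the number of arrays limits the precision. Alternatives were normexp (offset 50, median signals) with loess in limma 3.58.1 (R 4.3.3), the series table, the sample channel scaled to its 75th percentile, other filters, the brightest probe, median centering, a 2-fold threshold and each array of the pair alone. Python 3.11.15, pandas 2.3.3, numpy 2.4.6 and matplotlib 3.10.9 were used, and scripts were tested on simulated data. Members and gene lists were chosen with earlier results of these data known. Any member could be named, by rule every member past 1.5-fold in a comparison or else the 3 largest changes per direction, with the siRNA targets and up to 3 genes per direction past 1.5-fold from each further list.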

Additional observations from a re-analysis of the deposited data

Results flagged for a closer look

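The median log2 change of the mitosis genes after BRG1 depletion was −0.18 in Ls174T cells and 0.2 in HEK293T cells, and was noted because it lies on opposite sides of 0 in the 2 cell lines under the same siRNA. The difference between the lines was not tested, since each condition is 1 culture. In both lines the si-BRG1 array and its si-control array lie on different slides, and slide cannot be told apart from siRNA there. Against si-P300 on the same slide the medians were −0.34 and 0.26. The mitosis medians after p300 depletion against si-control were 0.19 in Ls174T and −0.07 in HEK293T cells. The same-slide differences therefore hold the p300 side as well as the BRG1 side.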

How the results depend on the processing

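Set medians ranged from −0.60 to −0.52 for replication and −0.57 to −0.50 for mitosis genes after β-catenin depletion, and −0.15 to −0.10 and 0.18 to 0.23 after BRG1 depletion in HEK293T cells. The mitosis median after p300 depletion in Ls174T cells went from 0.19 to 0.11 with the sample channel alone. Medians near 0, in HEK293T cells with Wnt3A, MLLT10/AF10, DOT1L or p300, crossed 0 under 1 or 2 alternatives each, except the replication median with Wnt3A, which did not cross. Of the alternative counts of members past the threshold 79 stayed within 1.5 times and 6 did not. With the sample channel alone the count was 2 after BRG1 depletion in Ls174T cells (MCM4 −0.62, E2F2 0.77), 5 after BRG1 depletion in HEK293T cells (CDT1, KIF23, TOP2A 0.67, RRM2 0.62, CCNA2 0.59) and 2 after p300 depletion in HEK293T cells (E2F1 0.81, E2F2 −0.62); this setting moved the median of all genes by −0.10 in the BRG1 comparison of HEK293T cells. With the brightest probe it was 1 after p300 depletion in Ls174T cells (CENPF 0.64). At 2-fold it was 1 after β-catenin depletion and 0 after BRG1 depletion in HEK293T cells. These causes were not tested, apart from the higher threshold itself. With either array of the pair alone the β-catenin count was 22 to 26. Of the members past 1.5-fold after β-catenin depletion and after BRG1 depletion in HEK293T cells, which were recomputed one by one, none changed sign. No paired analysis was possible because each condition is 1 sample. Dim probes limit GINS1, AURKA, TTK, MKI67 and 1 probe of RFC3 on the β-catenin pair.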
